A study of Homo sapiens with 2 samples.

Results

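C/D box small nucleolar RNAs (snoRNAs) are short nuclear RNAs, most of which are cut from the introns of other genes and guide the 2'-O-methylation of ribosomal RNA. Each works in a particle with the methyltransferase fibrillarin (FBL) and its partners NOP56, NOP58 and SNU13, and a few, such as U3 and U14, take part in the cleavage of the ribosomal RNA precursor. The families SNORD113 and SNORD114, of the DLK1-MEG3 region of chromosome 14, and SNORD115 and SNORD116, of the SNRPN-UBE3A region of chromosome 15, are tandem copies in imprinted regions. The chromosome 15 copies are expressed from the paternal allele, lack a ribosomal RNA target, and are known for the loss of SNORD116 in Prader-Willi syndrome and for the high level of SNORD115 in brain.

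The genes were chosen by symbol, SNORD followed by a digit, among the genes that the platform annotation assigns a probe of their own. This gave 115 of the 18417 measured genes, each read by 1 probe (a set of oligonucleotides summarised as 1 value). Of them, 46 belonged to the 4 imprinted families and 69 did not. RefSeq listed 112 as snoRNA genes of 60 to 148 bases and 3 (SNORD13P1, SNORD13P2 and SNORD13P3) as pseudogenes of SNORD13. The class was picked for description with its lower values on these arrays already known, so its difference between the arrays is a description.

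Total RNA came from HepG2, a human hepatoma line, and was measured on 2 Affymetrix arrays. The SiO2-NP array held RNA of cells exposed for 24 h to amorphous silica nanoparticles at 100 mg/L in MEM medium, and the control array held RNA of HepG2 control cells. No further treatment or genotype is given in the labels for either group. The labels name no replicate cultures and no particle size. The values are log2 intensities, and each difference is the SiO2-NP value less the control value. A single array stood for each condition, so replicate spread is unknown, nothing was tested, and "higher" and "lower" describe these 2 arrays.

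All 10 measured hepatoma markers, among them ALB, AFP and APOB, were bright, with mean levels of 11.004 to 13.45. Of the markers of other cell types, 1 of 6 fibroblast, 1 of 4 leukocyte (CD68) and 0 of 4 endothelial ones reached the level filter. That filter is the median gene level, a mean log2 intensity of 7.26 over both arrays, and it is no detection call. Across all 33297 probes the arrays correlated with a Pearson r of 0.994.

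The C/D snoRNAs spanned nearly the whole brightness range of the arrays, and 54 of the 115 were at or above the level filter, while 61 were dimmer. SNORD13 (U13), which pairs with small-subunit ribosomal RNA and guides its acetylation, was the brightest, with a log2 intensity of 13.001 in SiO2-NP cells and 13.35 in control cells. It ranked 15 by level among the 18417 genes. SNORD116-15 followed at 12.93 in SiO2-NP cells and 13.12 in control cells. SNORD57, a methylation guide in an intron of NOP56, read 12.75 in SiO2-NP cells and 12.99 in control cells. The SNORD13P3 pseudogene read 12.57 in SiO2-NP cells and 12.89 in control cells. It resembles SNORD13 in sequence, so its probe may read SNORD13 RNA as well, which was not tested. A probe's brightness also depends on its sequence, so these ranks compare signals and not numbers of molecules.

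The imprinted families differed sharply in level, and SNORD116 alone was bright. The 20 SNORD116 genes had a median log2 intensity of 8.72 in SiO2-NP cells and 9.04 in control cells, and 14 of them were at or above the level filter. All 20 SNORD115 genes lay below it, with medians of 2.76 in SiO2-NP cells and 2.83 in control cells. Their mean levels over both arrays ran from 2.43 to 4.38, and SNORD115-4 was the dimmest of all 18417 genes. Of the 184 dimmest genes, the lowest 1%, 15 were SNORD115 members, against 1 SNORD116 member (SNORD116-18). Both families lie within the RefSeq span of 1 gene, SNHG14, which holds 40 of the measured C/D snoRNAs. The 2 SNORD113 genes had levels of 3.13 and 3.43, and the 4 SNORD114 genes had levels of 3.01 to 4.39, all below the filter. The dim values cannot be told from the absence of the transcript.

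**Figure D1:**
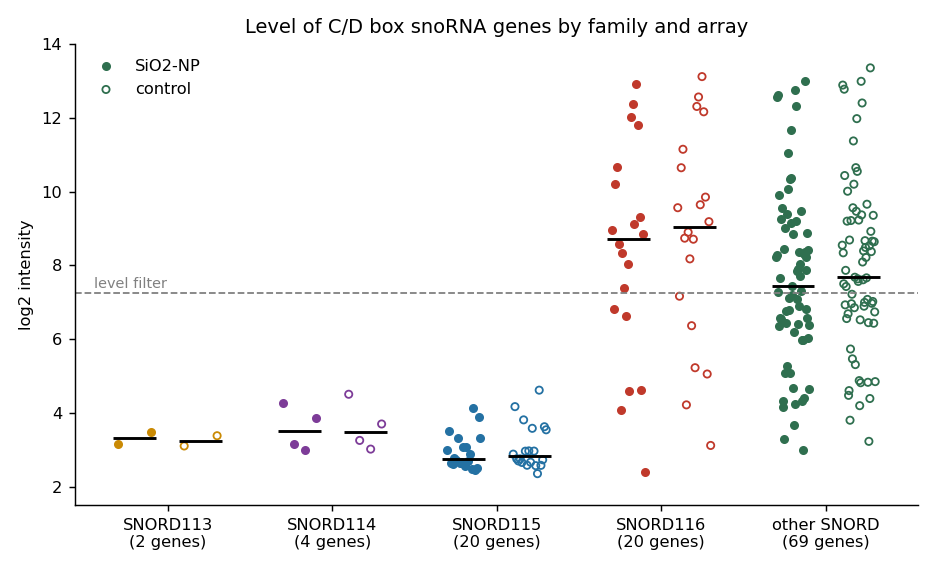
Log2 intensity (vertical axis) of each C/D snoRNA gene by family, with SiO2-NP as filled points and control as open points; black bars are medians over genes and the dashed line is the level filter of 7.26. The SNORD113, SNORD114 and SNORD115 genes read at most 4.62 on either array, while SNORD116 genes reach 13.12.

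Neighbouring genes of the imprinted regions were mostly dim as well. On chromosome 14, DLK1, the imprinted Notch-family ligand gene of that region, was bright (10.52 in SiO2-NP cells, 10.43 in control cells), while the non-coding RNA gene MEG3 read 6.40 in SiO2-NP cells and 6.36 in control cells. The other 3 measured neighbours (RTL1, DIO3 and BEGAIN) also lay below the filter. On chromosome 15, the probe shared by SNURF and SNRPN, whose promoter drives the paternal transcript, read 9.999 in SiO2-NP cells and 9.976 in control cells. UBE3A, the ubiquitin ligase gene of Angelman syndrome, read 8.30 in SiO2-NP cells and 8.35 in control cells. NDN, MAGEL2, MKRN3 and NPAP1, further upstream, lay below the filter.

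Nearly all C/D snoRNAs that were at or above the filter were lower in SiO2-NP cells, each by a modest amount. Of these 54, 53 lay below control. Their median log2 difference was -0.32, and the interquartile range was -0.49 to -0.20. Over all 9209 genes at or above the filter, 59.8% lay below control, and the median was -0.03. At least 1.5-fold lower (a log2 difference of -0.58 or less) were 3 of the 54, or 5.56%, against 0.25% of the 9209 genes, and 0 of the 54 were at least 1.5-fold higher, against 0.141%. Over all 115 members, 101 were below the control, or 87.8%, against 47.6% of all genes, with a median of -0.30 against 0.01. At 1.5-fold, 9 of the 115 were lower and 0 higher, against 0.369% and 0.331% of all genes. The class was known to be lower, so these counts show its size and shape and support nothing further. Fewer cells that express a gene and less RNA per cell cannot be told apart in such bulk samples.

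The difference appeared at every level of brightness. All genes were split into quartile bands of their mean level. In the brightest band, from 8.75 up, 29 of 30 C/D snoRNAs lay below control, at a median of -0.32, against -0.04 over all genes of the band. In the next band, from 7.26, all 24 were below it, with a median of -0.39 against -0.02. Below the filter, 17 of 18 were lower in the upper band (median -0.37, against 0.07 over all its genes) and 31 of 43 in the dimmest band (median -0.20, against 0.07). Across the 115 members, the difference had a Pearson r of -0.23 and a Spearman rho of -0.25 with level. The sign was opposite over the 54 at or above the filter, at 0.26 and 0.24. With transcript length the values over all 115 were -0.02 and 0.00. The correlations are descriptions, since all members share the same 2 arrays.

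**Figure D2:**
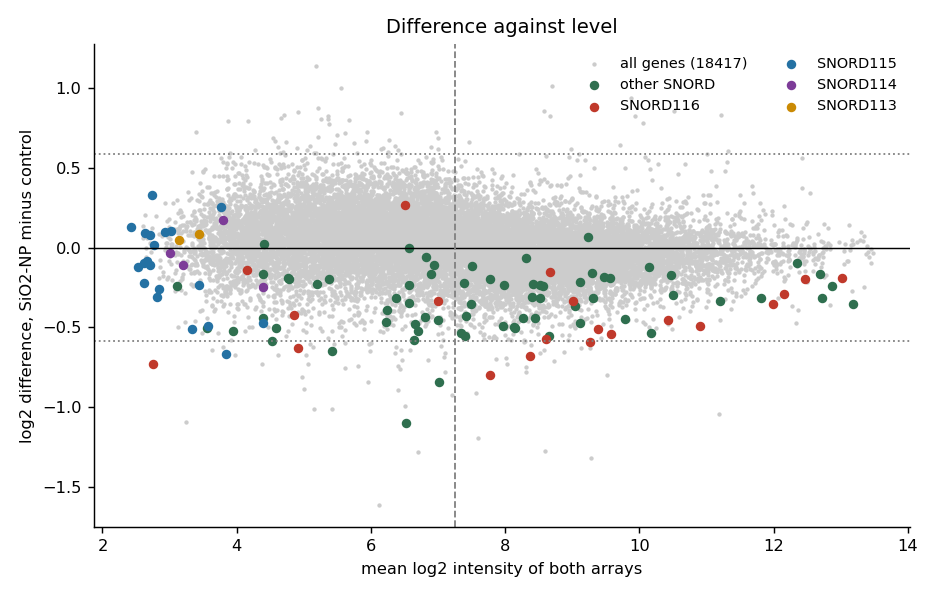
Log2 difference, SiO2-NP minus control (vertical axis), against the mean log2 intensity of both arrays (horizontal axis), for all 18417 genes in grey and the C/D snoRNAs in colour. Dotted lines mark 1.5-fold, and the dashed line marks the level filter of 7.26; 101 of the 115 coloured points lie below 0.

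The members with the largest differences above the filter came mostly from SNORD116. SNORD116-29 read 7.38 in SiO2-NP cells and 8.18 in control cells, 1.74-fold lower. SNORD116-13 read 8.04 in SiO2-NP cells and 8.71 in control cells (1.598-fold lower), and SNORD116-25 read 8.97 in SiO2-NP and 9.56 in control cells (1.51-fold lower), just inside the 1.5-fold threshold. Just outside it lay SNORD116-11 at 8.33 in SiO2-NP and 8.90 in control cells (1.49-fold lower) and SNORD51, a ribosomal RNA methylation guide, at 7.13 in SiO2-NP and 7.68 in control cells (1.47-fold lower). Thus 5 of the 8 largest differences above the filter were in SNORD116 genes, which made up 14 of the 54 members there. Probes of these copies may read each other's RNA, so the 5 are not independent readings. The 3 smallest of these 8 were SNORD82, at 8.37 in SiO2-NP cells and 8.92 in control cells, SNORD116-26, at 9.31 in SiO2-NP and 9.85 in control cells, and SNORD74, at 9.90 in SiO2-NP and 10.44 in control cells. At the other end, the methylation guide SNORD95 was the only member above the filter that was higher, at 9.26 in SiO2-NP cells and 9.20 in control cells. The smallest decreases were in SNORD50A (8.27 in SiO2-NP cells, 8.34 in control cells), SNORD33 (12.31 in SiO2-NP and 12.40 in control cells) and SNORD83B (7.45 in SiO2-NP and 7.57 in control cells).

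Of the 61 members below the filter, 48 lay below control, against 35.4% of the 9208 genes there. At least 1.5-fold lower were 6, against 0.489% of those genes, and 0 were at least 1.5-fold higher, against 0.521%. The 6 are named here after their values were seen. SNORD58A, which lies in the ribosomal protein gene RPL17, had the largest difference of the class, with 5.98 in SiO2-NP cells and 7.08 in control cells (2.15-fold lower). SNORD38A, a ribosomal RNA methylation guide, read 6.59 in SiO2-NP cells and 7.43 in control cells (1.79-fold lower). SNORD116-18, SNORD115-44, SNORD37 and SNORD116-12 were 1.54-fold to 1.66-fold lower, at levels of 2.76 to 5.41, where signals lie near the dim end of the array.

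Split by imprinting, the measured differences varied by family, but only SNORD116 had genes above the filter. The 46 imprinted members had a median difference of -0.23 and the 69 others -0.32, with 34 of 46 and 67 of 69 below the control. The imprinted median joined unlike families: it was -0.44 over the 20 SNORD116 genes, 19 of them below control, and -0.10 over the 20 SNORD115 genes, of which 12 were below and 8 above. The 2 SNORD113 genes differed by 0.05 and 0.09, and the 4 SNORD114 genes by -0.25 to 0.17. All 26 genes of SNORD113, SNORD114 and SNORD115 had levels of 2.43 to 4.39, which cannot be told from the absence of the transcript. Their differences therefore describe dim signals and not a response of these families. Without SNORD113, SNORD114 and SNORD115, the imprinted median lay 0.12 below that of the other members, in place of 0.09 above it. At matched brightness above the filter, SNORD116 had medians of -0.40 over 10 genes in the brightest band and -0.63 over 4 genes in the next, while the 20 other members of each band had -0.27 and -0.33. Below the filter the order was not the same in both bands. In the upper one, 2 SNORD116 genes had a median of -0.03 and 16 others -0.41, and in the dimmest, 4 had -0.53 and 13 others -0.24. The 20 SNORD115 values had an extreme of -0.67 in SNORD115-44 (3.51 in SiO2-NP cells, 4.18 in control cells) and another of 0.33 in SNORD115-31 (2.90 in SiO2-NP and 2.58 in control cells).

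The probes of the SNORD116 copies differed from each other in level far more than between the arrays. SNORD116-15, at 12.93 in SiO2-NP cells and 13.12 in control cells, and SNORD116-18, at 2.40 in SiO2-NP and 3.12 in control cells, are 3 copies apart by number. However, a probe that named 10 genes, both of these copies among them, read 12.31 in SiO2-NP and 12.51 in control cells. That shared probe also named the bright copies SNORD116-14 and SNORD116-20, so its reading does not show how much SNORD116-18 RNA there was. Levels of different probes do not compare amounts of RNA. By stretches of the array, the 2 measured copies numbered 1 to 9 differed by -0.49 and -0.51, all 13 of copies 10 to 24 lay below control (median -0.35), and 4 of 5 of copies 25 to 29 did (median -0.54). The exception was SNORD116-28, at 6.64 in SiO2-NP cells and 6.37 in control cells, below the level filter. The copies resemble each other in sequence, so a probe assigned to 1 copy may read others, and the copies are not independent readings of the locus.

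**Figure D3:**
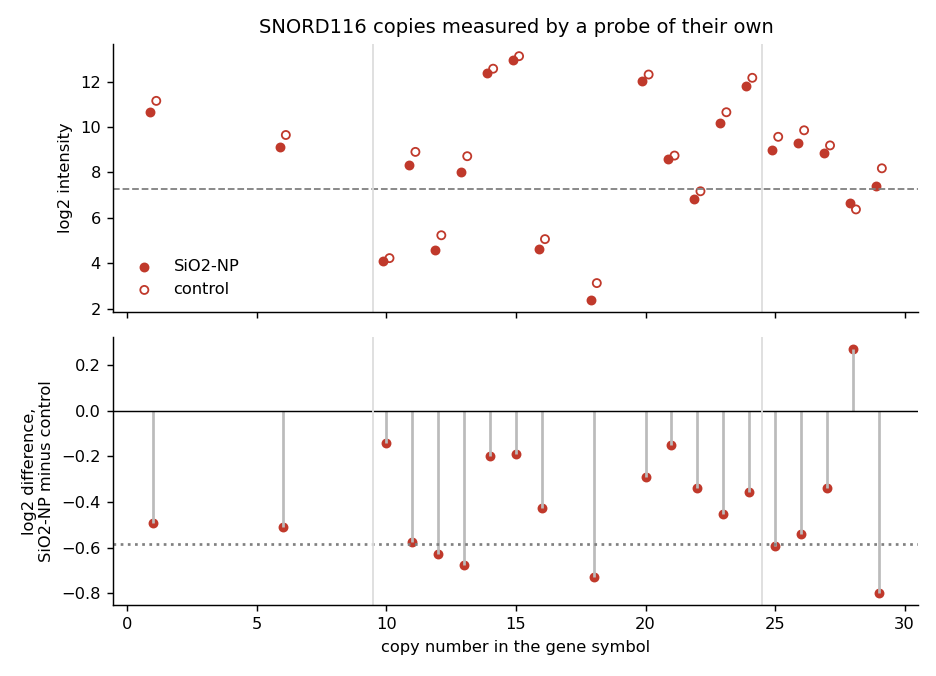
SNORD116 copies by the number in their symbol (horizontal axis): log2 intensity in SiO2-NP cells (filled) and control cells (open) above, and the log2 difference, SiO2-NP minus control, below. The dashed line is the level filter, the dotted line 1.5-fold, and the thin vertical lines separate copies 1 to 9, 10 to 24 and 25 to 29; 19 of the 20 copies lie below 0.

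Probes that the annotation assigns to several genes were kept apart. There were 49 of them that named a C/D snoRNA, with 37 distinct readings. Of the 37, 32 lay below control (median -0.25), against 47.6% of the 18417 genes with a probe of their own. These probes named 64 C/D snoRNAs that had no probe of their own, so for those they were the only reading. Some also named a host gene, such as GAS5 or SNHG1, and may read its transcript, which was not tested. The 6 readings for SNORD116 copies, at levels of 8.31 to 12.41, were all below control, against 59.8% of genes at or above the filter. The 6 for SNORD115 copies had levels of 2.53 to 3.54, with 3 below, against 35.4% of genes below the filter. U3, the snoRNA needed for early cleavage of the ribosomal RNA precursor, was read only by 5 probes of identical value that named 5 SNORD3 genes, at 8.05 in SiO2-NP cells and 8.40 in control cells. U22, which is needed for small-subunit ribosomal RNA processing, shared its probe with its host SNHG1, and that probe read 7.81 in SiO2-NP cells and 8.28 in control cells. U14, which takes part in the same processing and also guides a methylation, was measured as SNORD14C (9.47 in SiO2-NP cells, 9.66 in control cells) and SNORD14E (5.99 in SiO2-NP and 6.45 in control cells).

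Intronic snoRNAs are released from the spliced introns of a host gene, so members can share 1 host transcript. RefSeq spans placed 110 of the 112 snoRNA genes inside 40 larger genes, matched without regard to strand because the gene table holds none. The exceptions were SNORD13, which has a promoter of its own, and SNORD32B. The 7 members in GAS5, a growth-arrest non-coding RNA whose introns hold a series of ribosomal RNA methylation guides, were all below the control, by -0.54 (SNORD74) to -0.35 (SNORD75). Their levels nevertheless ran from 3.56 (SNORD77) to 10.17 (SNORD74). The 4 members in RPL13A differed by -0.37 (SNORD34), -0.30 (SNORD32A), -0.12 (SNORD35A) and -0.09 (SNORD33), at levels of 9.05 to 12.35. SNORD32A, SNORD33 and SNORD35A are also known as mediators of lipid stress signalling. Members of 1 host shared direction in GAS5 and RPL13A, while the levels of their probes varied widely. Their differences spanned 0.19 in GAS5 and 0.27 in RPL13A. In RACK1 even the direction differed, with SNORD96A at -0.17 and SNORD95 at 0.06.

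For 32 members the surrounding gene was itself measured, by 22 genes in all, and the snoRNAs were lower relative to it. The 32 members had a median difference of -0.31, while the 22 genes had a median of -0.05, and 12 of these genes differed by 0.1 or less in size. In 30 of the 32 cases the member's difference was more negative than its gene's, by a median of 0.20, written as a member-minus-gene difference of -0.20. With probes of several symbols counted, that median was -0.10. The class was picked with its lower values known, and 31 of the 32 members lay below control. Mostly negative gaps therefore follow in part from that choice, and these counts are a description only. SNORD82 read 8.37 in SiO2-NP cells and 8.92 in control cells, while its gene NCL, which encodes nucleolin, read 11.52 on both arrays. SNORD20, also in NCL, differed by -0.19. SNORD37 read 5.09 in SiO2-NP and 5.74 in control cells, while its gene EEF2, a translation elongation factor, read 12.33 in SiO2-NP cells and 12.32 in control cells. SNORD14E differed by -0.46 and SNORD14C by -0.19, while their gene HSPA8, a heat shock cognate chaperone, differed by -0.01. The 3 members in RPL23A differed by -0.53, -0.47 and -0.24, against -0.04 in that gene. The largest gap was in SNORD51, at -0.56, against 0.20 in its gene EEF1B2, an elongation factor subunit. Other gaps were small, such as -0.07 for SNORD83B in RPL3 and -0.08 for SNORD54 in RPS20.

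In 2 of the 32 cases the member was not the lower one. SNORD53 (-0.18) was less negative than its gene WDR43 (-0.22), and SNORD59A (0.02) was above its gene ATP5F1B (-0.04). Of the 22 genes, 15 were themselves below the control, 8 of them by more than 0.1. Among all genes at or above the filter, 59.8% were below the control. RPL17 and RPL7A had the most negative values, at -0.42 beside SNORD58A (-1.10) and -0.30 beside SNORD36B (-0.50). Across the 32 pairs the differences correlated with a Pearson r of 0.35 and a Spearman rho of 0.06, as a description of pairs that share both arrays and, in part, a gene. Over the 19 members at or above the level filter the signs turned, to -0.21 and -0.28. Of these 19, 18 were lower relative to their gene, with medians of -0.31 for the members and -0.05 for the 13 genes.

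**Figure D4:**
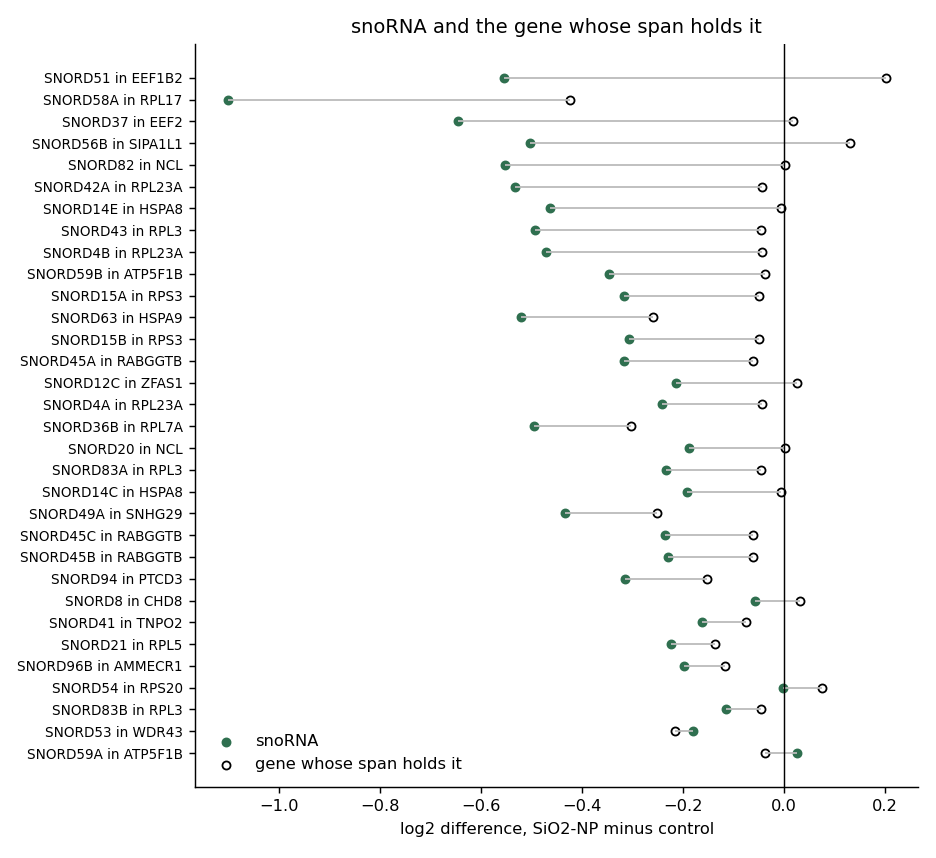
Log2 difference, SiO2-NP minus control (horizontal axis), of 32 C/D snoRNAs (filled points) and of the measured gene whose span holds each one (open points), ordered by the gap between them. In 30 of the 32 rows the filled point lies left of the open one.

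Many snoRNA hosts begin transcription at a C followed by pyrimidines, the 5' terminal oligopyrimidine start known from ribosomal protein genes. In the RefSeq promoter windows of GRCh38.p14, an annotated start at a C followed by at least 4 bases that are C or T was found in 13 of 33 genes that hold a member (39.4%), and in 5.14% of 27305 genes with a window. Only the strand of the gene was searched, and only at the start itself. Of the 21 members in genes with such a start, 20 lay below control (median -0.24). Of the 31 members in genes without one, SNORD113 to SNORD116 left out, all 31 did (median -0.43). The genes without one included GAS5, whose 7 members had a median of -0.45, and the ribosomal protein genes RPL3 and RPL17. The split therefore follows the annotated start base and is weighted by GAS5, and no difference between the groups was tested. The starts of 6 genes that hold members are shown from 25 bases before to 25 bases from the start, 5' to 3', with the run of C and T at the start in capitals. They are shown as examples of starts with and without the run. The start of SNHG14 is added because it lies before both the bright SNORD116 and the dim SNORD115 copies. They lie at chr19:3985439-3985488 (minus strand, EEF2), chr11:75399493-75399542 (plus, RPS3), chr2:206159870-206159919 (plus, the second annotated start of EEF1B2), chr19:49487583-49487632 (plus, RPL13A), chr2:231464460-231464509 (minus, NCL), chr11:123062112-123062161 (minus, HSPA8) and chr15:24823583-24823632 (plus, SNHG14).
EEF2: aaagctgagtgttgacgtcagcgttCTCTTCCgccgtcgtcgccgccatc
RPS3: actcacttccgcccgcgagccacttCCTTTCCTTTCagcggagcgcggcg
EEF1B2: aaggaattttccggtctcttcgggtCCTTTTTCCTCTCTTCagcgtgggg
RPL13A: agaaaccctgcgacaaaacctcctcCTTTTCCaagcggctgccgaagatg
NCL: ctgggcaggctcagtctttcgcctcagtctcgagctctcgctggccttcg
HSPA8: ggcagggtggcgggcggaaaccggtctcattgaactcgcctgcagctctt
SNHG14: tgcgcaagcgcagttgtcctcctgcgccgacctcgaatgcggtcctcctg

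RPS3, the ribosomal protein gene with the longer of the ribosomal protein runs shown, read 12.66 in SiO2-NP cells and 12.71 in control cells. Its snoRNAs SNORD15A and SNORD15B differed by -0.32 and -0.31. A match at a start describes the sequence only.

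The transcripts of genes for C/D snoRNA particle proteins and their assembly were mostly lower, with list medians smaller in size than the C/D median of -0.32 above the filter. RPAP3 (-0.56) and RRP9 (-0.40) exceeded that size. FBL, the methyltransferase, read 10.92 in SiO2-NP cells and 11.03 in control cells, and NOP58 read 10.81 in SiO2-NP and 10.92 in control cells. NOP56 and SNU13 had only probes shared with other genes. All 10 listed assembly factors lay below control (median -0.16). The largest difference among them was in RPAP3, a subunit of the R2TP chaperone complex, at 7.56 in SiO2-NP cells and 8.12 in control cells. NUFIP1 (-0.25), an adaptor in particle assembly, and the ATPase RUVBL1 (-0.21) followed. Of the 28 measured genes of the U3-containing small-subunit processome, 26 lay below control (median -0.14), led by RRP9 (8.38 in SiO2-NP cells, 8.77 in control cells), a U3-specific protein, and by UTP11 (-0.31) and UTP18 (-0.30). None of these 40 genes reached 1.5-fold, and 59.8% of genes at or above the filter were below the control. Of 30 listed snoRNA host genes (the SNHG genes and GAS5), SNHG17 (-0.15) and SNHG29 (-0.25) alone had a probe of their own.

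Other small RNA classes differed in direction. Among all genes at or above the filter, 59.8% lay below control and 0.25% were at least 1.5-fold lower. The H/ACA snoRNAs (SNORA), which guide pseudouridylation, had a median of -0.30 over 33 genes at or above the filter, with 30 below the control, close to the C/D value of -0.32. The Cajal body RNAs (SCARNA) had -0.23 over 8 genes, with 7 below. The microRNA genes, whose primary transcripts are longer, had 0.18 over the 13 of 173 genes at or above the filter, with 3 below. The vault RNAs (VTRNA) had the largest median, -1.19, with 3 of 3 at least 1.5-fold lower. The small nuclear RNAs (RNU) had -0.37 over the 5 of 15 genes at or above the filter, all below the control. The 1 measured Y RNA (RNY) gene differed by -0.14, below the filter. No difference between these classes was tested.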

How the data were processed

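Per the labels, biotin-labelled cDNA was made from 300 ng of total RNA per sample (Ambion WT Expression kit) and hybridised to Affymetrix arrays. The deposited table holds 1 log2 intensity per probe and array. Per the submitters' processing notes, RMA and MAS5 were used; their roles, versions and the genome build were not given in the sources used here. Where RMA made them, its quantile step would remove a shift shared by most transcripts. Arrays have no read depth; their number limits the precision.

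From that table, probes with exactly 1 gene symbol (19460 of 33297; 1754 had several) were averaged per gene. All 115 member symbols were found in RefSeq. A host was taken as the shortest gene (for values, the shortest measured one) whose RefSeq span (GRCh38.p14) holds the member; the planned match on strand could not be made. Promoter windows are RefSeq's. Genes were named by the extremes of level and difference, the threshold, roles and host. The examples by host gene, the split by host start and the stretches of SNORD116 copies were added after their values were seen. Members, lists and rules were chosen with earlier results of these data known. Members of 1 further host are not reported here by host. The steps were tested on simulated data. Alternatives covered the filter, fold threshold, scaling, probe rules, imprinted set and mean. Tables were handled with pandas 2.3.3 and NumPy 2.4.6 under Python 3.11.15, and plots drawn with matplotlib 3.10.9.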

Additional observations from a re-analysis of the deposited data

How the results depend on the processing

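Of 76 recomputed values, 63 kept their direction and moved by 0.1 or less (log2), or, for counts, by 1.5 times or less. Some of the 63 could not move. All 115 members had 1 probe each, so taking the brightest probe per gene left every member's value unchanged. The wider imprinted set added no measured member, so its values repeat the main ones. The median over members at or above the filter stayed between -0.34 and -0.27 under its 8 alternatives, and 53 of the 54 were below the control under all 3 rescalings (centring on the median, on a level-dependent running median, and quantile normalization). The count at least 1.5-fold lower was 9 without a filter, 1 with a filter at the 75th percentile and 0 at 2-fold, against 3. The imprinted median of -0.23 became -0.47 above the filter, -0.11 with probes of several symbols counted and -0.44 without SNORD113, SNORD114 and SNORD115. The gap of 0.09 between imprinted and other members became 0.21 with those probes and turned to -0.12 without the 3 families, where the SNORD116 genes alone make up the imprinted set. The imprinted median level of 3.78 became 9.49 above the filter, 3.13 with those probes and 8.84 without the 3 families, and that of the others, 7.51, became 8.85 and 8.14 under the first pair of settings. Those probes also brought the member-minus-gene median to -0.10, from -0.20. Leaving out the 3 families or the pseudogenes, and the host match without strand, were chosen after seeing the data. No paired analysis was possible because SiO2-NP and control had a single array apiece, and no replicate could be left out.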
